A study of Arabidopsis thaliana with 39 samples.

Results

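In the root epidermis of Arabidopsis seedlings, 39 of 806 genes with RPKM values were higher 6 h after a transfer to fresh medium than before it, on +Fe and on -Fe medium alike, and lay close together on the 2 media at 36 h. They were chosen by 3 log2 ratios of RPKM + 1. RPKM is a read number per length of gene and per total of reads, and 1 was added before the logarithm. RPKM times exon length summed to nearly the same total over the 806 genes in each group (coefficient of variation 0.325%). The values are therefore close to shares of these 806 genes rather than of all reads. The limits for 6 h over 0 h were at least 0.75 on +Fe medium and at least 0.75 on -Fe medium. The limits for -Fe over +Fe at 36 h were -0.75 and 0.75, with members between them. These limits gave 41 genes (5.09% of the table), of which AT1G03090 and AT5G20250 were left out by name. The measured values therefore fixed the 6 h ratios of the members and their 36 h ratio between media, which are given as a description and support nothing. Values at 12, 18, 24 and 30 h had no part in these 3 limits. They may have had a part in the choice of the 806 genes, which the authors named as differentially expressed. A gene close between media at 36 h may be in that set through a difference at another time. Ratios to 0 h at these times also share the 0 h value that the rule used.

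All groups came from the pWER::GFP line in the Col-0 accession, in which the promoter of WEREWOLF, a MYB factor of epidermal cell fate, drives a green fluorescent protein. Seedlings grew on +Fe medium to day 7, and those not taken as the 0 h group were then moved to +Fe medium (0.1 mM FeEDTA) or to -Fe medium with 300 μM ferrozine, an iron chelator. The sample labels give 0 mM FeEDTA for -Fe medium, whereas the Methods list 0.1 mM for both. Roots were taken at 0 h and at 6, 12, 18, 24, 30 and 36 h on each medium, turned into protoplasts and sorted for fluorescence, 3 samples for each of 13 groups. The deposited values are 1 RPKM for each gene and group, so each difference below is one between single values, with no spread and no test, and the read depth is unknown. Every ratio to 0 h shares 1 value, that of the 0 h group, which was not transferred. Seedlings grew in a daily cycle of light and dark, and the clock times of transfer and harvest are not given in the sources used here. If all were transferred at the same time of day, 6 h differs from 0 h in clock time too. Time since transfer and time of day therefore cannot be told apart at 6 h.

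A seedling that is moved between plates meets changes in touch, humidity and the supply of sugar and salts along with any change in iron. Root epidermal cells lie at the contact with the medium and express receptor kinases, WRKY factors and enzymes of indolic defence compounds that respond to many outside stimuli. Energy supply is sensed in plant cells by a network of the SnRK1 kinase, bZIP transcription factors and trehalose phosphate, which matches metabolism to the sugar at hand.

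The 806 genes are a set the authors named as differentially expressed, which limits a check of the cell type. They are fewer than the differentially expressed epidermal genes the paper reports, and how they were chosen is not given in the sources used here. Of 13 defining genes of the root epidermis, 1 was analysed here, GL2, a homeodomain factor of epidermal patterning, which lay between 98.1 and 409.8 RPKM over the 13 groups. Of 4 root cap genes 1 was analysed, NAC015 (also called BRN1), at 1384 to 2057 RPKM, and of the listed genes of cortex, endodermis, stele and green tissue 0 were. In sorted bulk material, fewer cells of a type and less RNA per cell cannot be told apart. The part of other cell types in the results below was not tested.

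At 6 h on +Fe medium all 39 members were at least 0.75 above 0 h, as the rule requires, beside 28.2% of the 806 genes, and on -Fe medium all 39 were, beside 15.3%. Both limits were met by 114 genes (14.1% of the table). These 114 parted at 36 h. A set of 57 was at least 0.75 lower on -Fe than on +Fe medium then, 16 were at least 0.75 higher, and the members came from those between. The median log2 ratio of the members at 6 h was 2.49 on +Fe medium and 1.28 on -Fe medium, that is 5.63-fold and 2.46-fold as plain RPKM ratios. All members but WRKY62, 38 of 39, lay further above 0 h on +Fe than on -Fe medium. The gain in RPKM on -Fe medium was a median of 30.2% of the gain on +Fe medium, from 7.63% to 108% over the members.

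**Figure D1:**
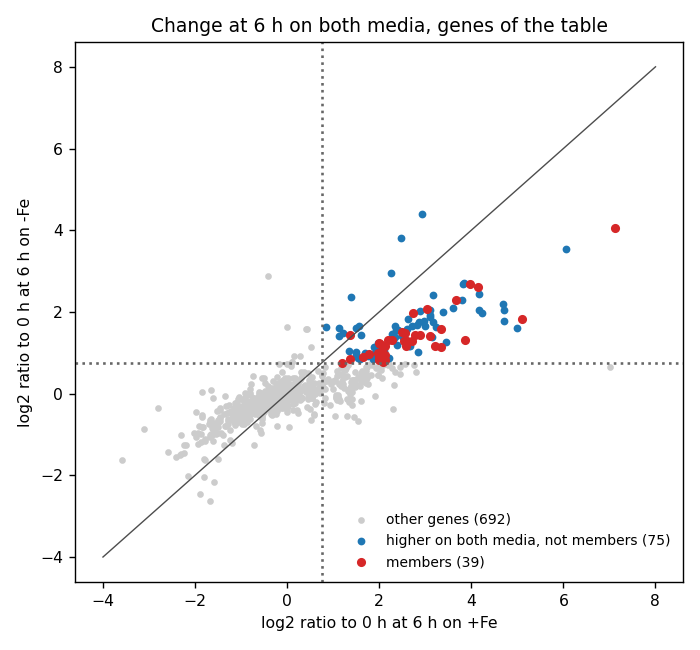
Log2 ratio of RPKM + 1 to 0 h at 6 h on +Fe medium (horizontal axis) and on -Fe medium (vertical axis), 1 point per gene of the 806. Dotted lines mark 0.75 and the solid line marks equal ratios; 38 of the 39 members (red) lie below the solid line.

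After 6 h most members stood lower on both media, and kept further above 0 h on +Fe medium. The peak on +Fe medium fell on 6 h for 33 members, on 12 h for 5 and on 24 h for 1. On -Fe medium the highest value after transfer was that of 6 h in 30 members, 12 h in 2, 18 h in 4 and 36 h in 3. On +Fe medium the median log2 ratio to 0 h over 12, 18, 24 and 30 h was 1.99, 1.26, 1.51 and 1.31. At these 4 times on +Fe medium 39, 37, 36 and 33 members were at least 0.75 above 0 h, beside 26.3%, 16%, 25.2% and 17.62% of the table. By 36 h the median was 0.50, with 12 members at least 0.75 higher (5.58% of the table) and 1, AT1G51790, at least 0.75 lower (5.33%). Over all 5 times from 6 to 30 h, 32 members stayed at or above the limit on +Fe medium.

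On -Fe medium the members were lower again, and their median was near that of 0 h by 24 h. Over the 5 times from 12 to 36 h the median log2 ratio to 0 h was 0.79, 0.68, 0.11, -0.21 and 0.25. At these times 21, 19, 7, 4 and 10 members were at least 0.75 above 0 h, beside 11.3%, 10.9%, 4.96%, 5.96% and 9.68% of the table. From 24 to 36 h 2, 3 and 3 members were at least 0.75 below 0 h, shares under the 12.2%, 17.7% and 12.7% of the table. By sign alone, 26 of 39 members were below their 0 h level at 30 h on -Fe medium, and 0 were on +Fe medium. The median RPKM of all 806 genes itself stood at -0.27 on the log2 scale against 0 h at 24 h and at 30 h on -Fe medium and at -0.18 at 36 h, and at -0.11 at 30 h on +Fe medium. Relative to these shifts the median of the members on -Fe medium was 0.38 at 24 h, 0.06 at 30 h, where the sign turns, and 0.43 at 36 h.

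**Figure D2:**
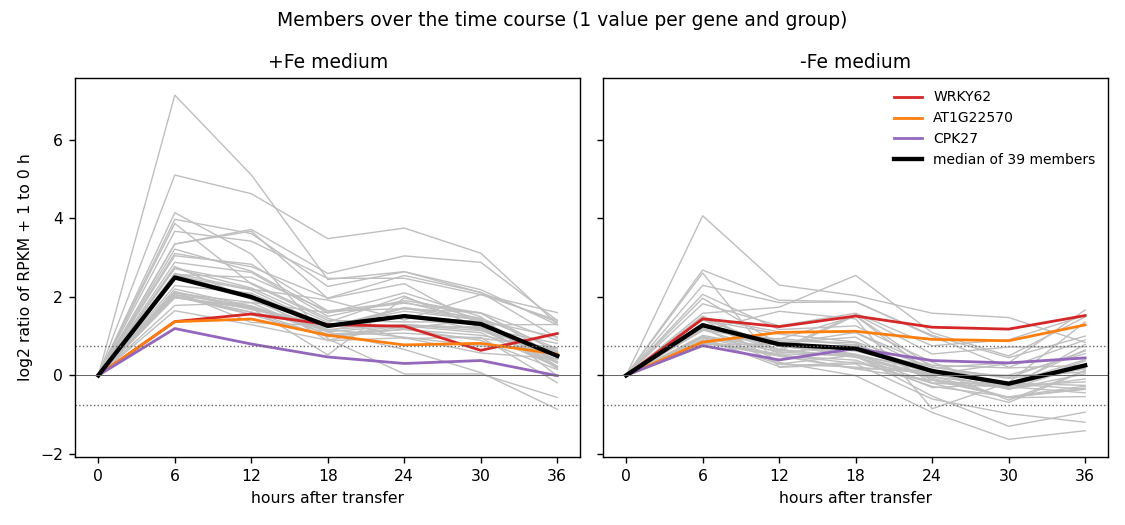
Log2 ratio of RPKM + 1 to 0 h for each of the 39 members against hours after transfer, on +Fe medium (left) and -Fe medium (right), with dotted lines at 0.75 and -0.75. The median (black) goes from 2.49 at 6 h to 1.31 at 30 h on +Fe medium and from 1.28 to -0.21 on -Fe medium. WRKY62, AT1G22570 and CPK27 (coloured) lie closer together on the 2 media at 12, 24 and 30 h than the rest, but not at 18 h.

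Between the media at the same hour, the members were lower on -Fe medium from 6 to 30 h, with a smaller gap at 18 h. Over the 5 times from 6 to 30 h the median log2 ratio of -Fe over +Fe was -1.17, -1.35, -0.52, -1.47 and -1.51. At these times 35, 35, 10, 35 and 34 members were at least 0.75 lower on -Fe medium, beside 23.3%, 23.57%, 11.4%, 30.1% and 26.2% of the table. At least 0.75 higher on -Fe medium were 0 members at each of these times, against 9.18%, 10.8%, 6.82%, 9.31% and 11.3% of the table. At 36 h the median was -0.40, and the rule leaves 0 members past either limit, beside 13.8% of the table lower and 9.8% higher on -Fe medium. All of 6, 12, 24 and 30 h were at or under -0.75 in 31 members, against 18.4% of the table.

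The narrower gap at 18 h followed a median step from 12 to 18 h of -0.83 on +Fe medium and -0.05 on -Fe medium. Over that step 22 and 0 members were at least 0.75 lower, beside 126 and 27 of the 806 genes, and 0 and 3 members were at least 0.75 higher, beside 41 and 23 of the 806 genes. From 18 to 24 h the median steps on the 2 media went opposite ways. On +Fe medium the median step from 18 to 24 h was 0.20 and on -Fe medium -0.68, each on the log2 scale. At least 0.75 lower at 24 h than at 18 h were 18 members on -Fe medium (12.5% of the table) and 1 on +Fe medium (2.36%). Of the 39 members 28 were above their 18 h level at 24 h on +Fe medium and below it on -Fe medium, a combination held by 38.6% of the table.

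**Figure D3:**
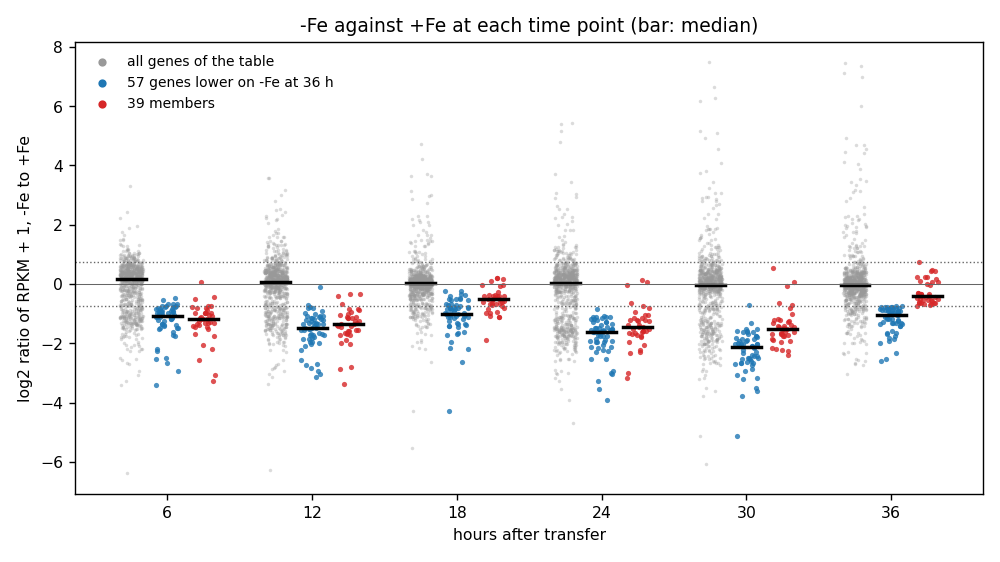
Log2 ratio of RPKM + 1 of -Fe over +Fe medium against hours after transfer, 1 point per gene, for all 806 genes (grey), the 57 genes that were at least 0.75 lower on -Fe medium at 36 h (blue) and the 39 members (red), with black bars at the medians. The members' median over 12, 18 and 24 h is -1.35, -0.52 and -1.47, while that of the table stays between -0.02 and 0.15.

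Times 24 h apart were set side by side, which are equal hours of the day if all seedlings were transferred at the same hour. That hour is not given. At 24 h the members were still a median of 1.51 above 0 h on +Fe medium and 0.11 above it on -Fe medium. At 30 h the median log2 ratio to 6 h was -0.99 on +Fe medium, with 28 members at least 0.75 lower (19.5% of the table). On -Fe medium it was -1.32, with 34 at least 0.75 lower (24.2%). On +Fe medium 0 members, and on -Fe medium only AT1G22570 by 0.03 on the log2 scale, were higher at 30 h than at 6 h.

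The 57 genes that shared the 6 h limits but were lower on -Fe medium at 36 h had like courses on +Fe medium. Their median log2 ratio to 0 h on that medium over 6, 24 and 30 h was 2.62, 1.52 and 1.37. Their values on -Fe medium went further down, with a median of -0.13 at 24 h and -0.74 at 30 h, where 28 of 57 were at least 0.75 below 0 h against 3 of the 39 members. The 2 sets were split on 36 h values of these same courses, and no test of this difference could be made.

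Among the members, 9 were placed under sugar use and energy sensing, by known role or by family annotation alone. The grouping was made after the values were seen, as were those that follow. KIN11 (AT3G29160) is a catalytic subunit of SnRK1. It was at 166 RPKM at 0 h, then 523, 408, 310.0, 399, 354 and 192 RPKM at 6, 12, 18, 24, 30 and 36 h on +Fe medium and on -Fe plates at 313, 204, 193, 173, 131 and 156 RPKM. The -Fe value was nearest to that of +Fe medium at 36 h and at 30 h was below the 0 h level. BZO2H3 (AT5G28770), also known as bZIP63, is a transcription factor that SnRK1 phosphorylates. It was at 129 RPKM at 0 h, then 630.1, 551, 302, 421, 342 and 161 RPKM at 6, 12, 18, 24, 30 and 36 h on +Fe medium and on -Fe plates at 322, 217, 184, 128, 86.6 and 103 RPKM. Its log2 ratio between media at 30 h was -1.97, the lowest of the 9. At 24 h its -Fe value equalled that of 0 h to within 0.01 on the log2 scale, while the +Fe value was 1.70 above it.

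STP4 (AT3G19930), a proton symporter that carries hexoses into sink cells, had the highest level per length among the 9. It was at 779 RPKM at 0 h, then 3577, 2639, 1679.7, 1887, 1799 and 904 RPKM from 6 to 36 h on +Fe medium. On -Fe medium it was at 1935, 1369.9, 1134, 821, 673 and 609 RPKM, lower than the +Fe value at each time and below 0 h from 30 h on. The other 6 were SWEET16, a sugar carrier of the vacuole membrane, ATTPS6, a protein of the trehalose phosphate synthase family, FBP, the cytosolic fructose bisphosphatase, MEE51, annotated as a phosphofructokinase, AT5G57655, annotated as a xylose isomerase, and AT1G18270, annotated as a ketose-bisphosphate aldolase. Over the 9, log2 ratios at 6 h ran from 1.65 to 2.57 on +Fe medium and from 0.82 to 1.47 on -Fe medium. All 9 were at least 0.75 lower on -Fe medium at 24 h and at 30 h, and 8 were at 12 h, ATTPS6 being at -0.67. Of all 39 members 35, 34 and 35 were so at 24, 30 and 12 h, beside 30.1%, 26.2% and 23.57% of the table. All 9 were at least 0.75 above 0 h on +Fe medium at 30 h and 0 were on -Fe medium. Of all 39 members 33 and 4 were, beside 17.62% and 5.96% of the table. The 9 are not set apart from the other members by these counts.

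None of the 9 was on a list of sugar starvation genes, but both genes that met the rule and were left out by name, AT1G03090 (MCCA) and AT5G20250 (DIN10), were on it. Of the 34 genes listed (the dark-inducible DIN genes, asparagine synthetase, branched-chain amino acid catabolism) 9 were analysed. At 6 h 7 of them were at least 0.75 above 0 h on +Fe medium, 5 on -Fe medium and 5 on both. For the iron deficiency list 15 of 44 were analysed, with 5 higher on +Fe medium, 8 on -Fe medium and 5 on both. Of these iron deficiency genes 0 were members. The same limits were met on +Fe medium, on -Fe medium and on both by 28.2%, 15.3% and 14.1% of the table. Touch, wounding and jasmonate genes had 4 of 31 analysed, and 1 was higher on both media. The clock and heat shock lists had 0 genes among the 806. Cell wall genes had 11 of 48 analysed, with 1 higher on both media, and each list not named here had 0 higher on both. Members were on 0 of the 11 lists, a count that depends on leaving out those 2 genes by name, since 2 of the 41 genes that met the rule were listed.

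**Figure D4:**
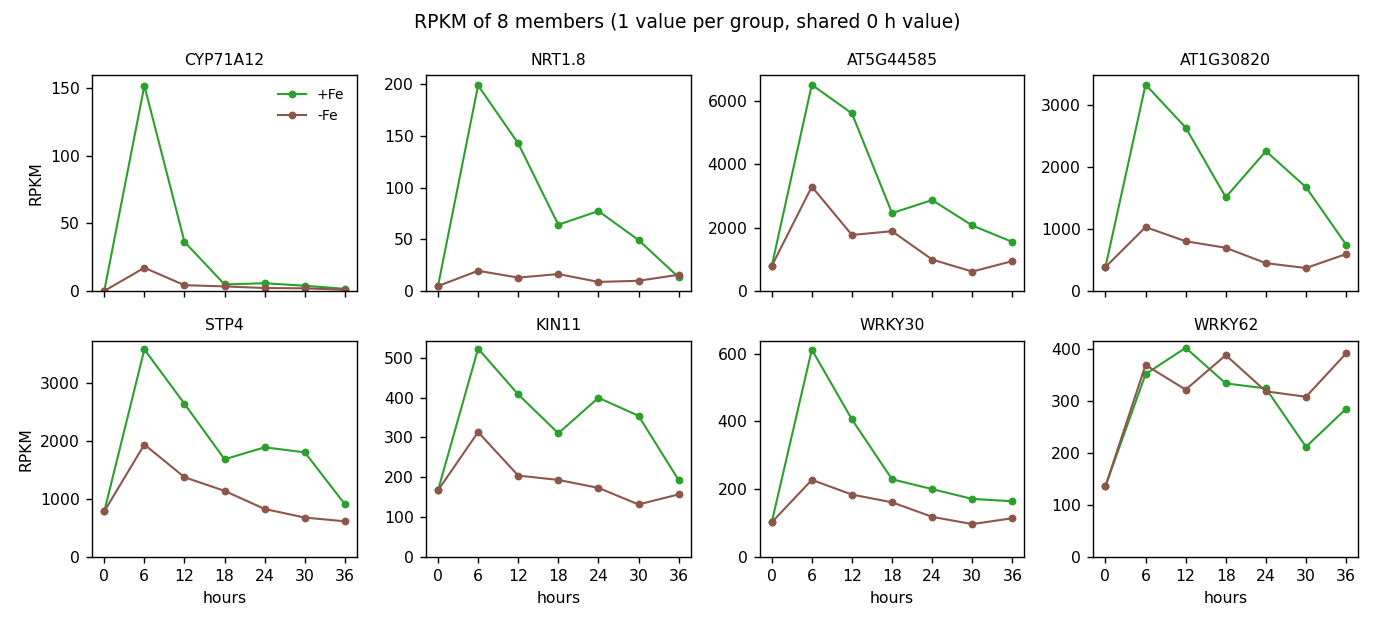
RPKM of 8 members against hours after transfer on +Fe (green) and -Fe (brown) medium, each panel with its own axis from 0, 1 value per group and the 0 h value shared by both lines. In 7 panels the +Fe line lies above the -Fe line from 6 to 30 h, whereas the lines of WRKY62 cross.

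A further 8 members were placed together under defence and indolic compounds, from general knowledge of such genes. Their annotation names only protein families or a homolog and no such role, AT1G51790, CYP71B22 and EXO70H1 included. CYP71A12 (AT2G30750), a cytochrome P450 of indole carbonitrile and camalexin synthesis, had the largest 6 h ratios of all members. It was at 0.0893 RPKM at 0 h, then 152, 36.4, 4.91, 5.79, 3.94 and 1.66 RPKM from 6 to 36 h on +Fe medium. On -Fe medium it was at 17.2, 4.36, 3.45, 2.26, 2.02 and 0.945 RPKM. The 0 h value and the last value on -Fe medium, 0.0893 and 0.945 RPKM, were the only 2 of the members' 507 values under 1 RPKM, so its log2 ratios at 6 h, 7.13 on +Fe and 4.06 on -Fe medium, depend on the 1 RPKM added. CYP83B1 (AT4G31500), which directs indole acetaldoxime into indole glucosinolates, was at 37 RPKM at 0 h, then 553, 189, 99.3, 96.6, 96.7 and 52.5 RPKM from 6 to 36 h on +Fe medium and at 93.7, 59, 111, 54.4, 61.7 and 61.9 RPKM on -Fe medium. It was 2.55 lower on -Fe medium at 6 h on the log2 scale and 0.15 higher at 18 h.

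HR3 (AT3G50470), a homolog of the powdery mildew resistance protein RPW8, was at 22.8 RPKM at 0 h, then 302, 253, 131, 131, 98 and 62 RPKM from 6 to 36 h on +Fe medium. On -Fe medium it was at 116, 85.1, 86.1, 47.3, 31.5 and 46.6 RPKM. It stayed above its 0 h level in all 12 later groups. AT1G51790, a leucine-rich repeat receptor-like kinase, was at 28.4 RPKM at 0 h, then 199.6, 111, 62.1, 45.4, 29.9 and 15.1 RPKM from 6 to 36 h on +Fe medium and on -Fe plates at 78.4, 35.9, 28.2, 14.3, 8.51 and 10.1 RPKM. It ended lowest among the members, with log2 ratios to 0 h at 36 h of -0.86 on +Fe medium and -1.41 on -Fe medium. The P450 gene CYP71B22 and EXO70H1, a subunit of the exocyst that tethers vesicles at the plasma membrane, complete the group together with the WRKY factors below. At 30 h 5 of the 8 were at least 0.75 lower on -Fe medium, the smallest share among the groups of 5 genes or more. Of all 39 members 34 were, beside 26.2% of the table. CYP71A12 at -0.71 and CYP83B1 at -0.64 fell just short of that limit, and WRKY62 was at 0.54.

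The pair of WRKY transcription factors differed in course. WRKY30 (AT5G24110) was at 101 RPKM at 0 h, then 613, 406, 229, 199.6, 171 and 164 RPKM from 6 to 36 h on +Fe medium and at 227, 183, 161, 118, 96 and 113 RPKM on -Fe medium, lower on -Fe medium at each time. WRKY62 (AT5G01900), a factor of salicylic acid and jasmonate responses, was at 136 RPKM at 0 h, then 352, 403, 334, 324, 212 and 285 RPKM from 6 to 36 h on +Fe medium. On -Fe medium it was at 369.6, 322, 389, 319, 308 and 392 RPKM. Its -Fe values overlapped those on +Fe medium, with log2 ratios between media from -0.32 at 12 h to 0.54 at 30 h, and all 12 values after transfer were above that of 0 h. Along with CYP71A12, NRT1.8 and AT1G22570 it was at least 0.75 above 0 h at each of the 6 times on -Fe medium.

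Small proteins and peptides gave 5 members. AT5G44585 and AT5G44582, both annotated as uncharacterized proteins, are neighbours on chromosome 5 with 2568 bases and 0 other coding genes between them. AT5G44585 had the highest level of all members per length, at 788 RPKM at 0 h, then 6506, 5603, 2459, 2870.0, 2069 and 1550.3 RPKM from 6 to 36 h on +Fe medium and at 3294, 1769.7, 1888, 994, 615 and 945 RPKM on -Fe medium. AT5G44582 was at 179 RPKM at 0 h, then 2817, 2192, 863, 1117, 774 and 459 RPKM from 6 to 36 h on +Fe medium and at 1151, 676, 658, 356, 206 and 335 RPKM on -Fe medium. Both were highest at 6 h on each medium and lowest after transfer on -Fe medium at 30 h. Of the exon bases of AT5G44585, 640 lie opposite AT5G06595 and 146 on the same strand as MIR5628, and since the use of strand in counting is not stated, its reads and theirs cannot be told apart.

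AT3G18250, annotated as a putative membrane lipoprotein, had a short course. It was at 14.9 RPKM at 0 h, then 279, 134, 29.2, 15.3, 15.3 and 9.75 RPKM from 6 to 36 h on +Fe medium and at 95.5, 17.3, 18.4, 9.45, 7.08 and 5.94 RPKM on -Fe medium, back near its 0 h level by 24 h on the first and by 12 h on the second. PSY1 (AT5G58650), the precursor of a secreted peptide with sulfated tyrosine that promotes cell expansion in roots, was at 45.3 RPKM at 0 h, then 339, 284, 130.0, 172, 138 and 62.6 RPKM from 6 to 36 h on +Fe medium and on -Fe plates at 123, 76.5, 65.1, 50.4, 28.9 and 49.5 RPKM. AT1G65845, uncharacterized, lay between 353 RPKM at 30 h on -Fe medium and 3199 RPKM at 6 h on +Fe medium. All 5 were at least 0.75 lower on -Fe medium at 12 h and at 30 h, and 4 were at 24 h. Of all 39 members 35, 34 and 35 were so at 12, 30 and 24 h, beside 23.57%, 26.2% and 30.1% of the table.

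Since the members share the 6 h difference by their choice, the 250 bases upstream of each member's annotated start were searched on both strands for 5 short motifs, also picked after the values were seen. The W-box, bound by WRKY factors, was searched as TTGACC and TTGACT. It was in 17 of 39 member promoters (43.6%), against 31.3% of the 802 table genes and 28.4% of 27443 coding genes with such a window. TATCCA, known from sugar-responsive amylase promoters of rice, was in 11 (28.2%, against 15.5% and 13.6%), ACTCAT, a bZIP-bound word of the proline dehydrogenase promoter, in 4 (10.3%, against 13.3% and 12.3%), the G-box CACGTG in 4 (10.3%, against 8.98% and 6.49%) and the evening element AAAATATCT of clock-controlled genes in 2 (5.13%, against 2.62% and 2.36%). In 0 of the 39 windows did matches of different motifs share a base. A match is a string of letters, not a shown binding site.

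The windows that follow, from the RefSeq sequence of TAIR10.1, are those of the neighbouring pair, of WRKY30 itself, of the hexose carrier STP4 and of CYP71A12, the member with the largest 6 h ratios. They were picked, after the values were seen, as examples among the members described above, and other windows not printed also hold 2 or more matches. Each is written 5′ to 3′ on the strand of the gene and ends at the base before the annotated start, with W-box words (TTGACC or TTGACT, or their reverse complements) and ACTCAT words in capitals.
AT5G44585: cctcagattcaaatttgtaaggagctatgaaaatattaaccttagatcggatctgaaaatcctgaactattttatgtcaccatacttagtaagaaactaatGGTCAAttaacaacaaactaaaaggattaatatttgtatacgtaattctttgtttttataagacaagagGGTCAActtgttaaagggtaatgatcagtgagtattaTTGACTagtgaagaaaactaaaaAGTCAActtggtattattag
AT5G44582: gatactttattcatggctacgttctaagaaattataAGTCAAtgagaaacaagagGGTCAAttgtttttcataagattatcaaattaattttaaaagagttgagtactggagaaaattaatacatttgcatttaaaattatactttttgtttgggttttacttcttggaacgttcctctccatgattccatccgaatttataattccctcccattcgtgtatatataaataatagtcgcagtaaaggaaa
WRKY30: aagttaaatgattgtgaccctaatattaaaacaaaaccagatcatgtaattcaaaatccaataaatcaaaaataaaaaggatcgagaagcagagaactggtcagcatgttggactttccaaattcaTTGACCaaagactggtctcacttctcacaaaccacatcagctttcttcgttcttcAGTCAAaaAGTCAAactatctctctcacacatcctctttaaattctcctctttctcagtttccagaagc
STP4: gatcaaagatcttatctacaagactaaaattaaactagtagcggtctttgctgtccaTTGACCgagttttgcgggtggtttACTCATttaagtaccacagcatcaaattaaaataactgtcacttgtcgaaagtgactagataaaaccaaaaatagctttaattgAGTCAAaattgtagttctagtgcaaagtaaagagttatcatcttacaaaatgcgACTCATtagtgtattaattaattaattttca
CYP71A12: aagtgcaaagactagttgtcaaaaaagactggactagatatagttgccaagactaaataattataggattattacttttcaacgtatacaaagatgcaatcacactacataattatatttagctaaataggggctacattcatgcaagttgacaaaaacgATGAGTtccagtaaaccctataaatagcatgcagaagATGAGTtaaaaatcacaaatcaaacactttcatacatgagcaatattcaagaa
They lie at chr5:17984277-17984526 (+ strand), chr5:17980600-17980849 (+ strand), chr5:8154711-8154960 (- strand), chr3:6934318-6934567 (+ strand) and chr2:13101372-13101621 (- strand), in the order given. AT5G44585 held 4 W-box words, WRKY30 held 3 and AT5G44582 held 2. The STP4 window held 2 W-box and 2 ACTCAT words, and that of CYP71A12 held 2 ACTCAT words and 0 W-box words. WRKY62, whose course differed from theirs, also held 2 W-box words.

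Calcium signalling had 3 members. SOS3, a calcium sensor of salt tolerance, and CIPK13, a kinase of the family that such sensors bind, had log2 ratios of 2.13 and 2.12 at 6 h on +Fe medium and 1.16 and 0.95 on -Fe medium. CIPK13 shares 665 exon bases with AT2G08655 on the opposite strand. CPK27 (AT4G04700), a calcium-dependent protein kinase, had the smallest 6 h ratios of all members, 1.19 and 0.76. It was at 109 RPKM at 0 h, then 250.4, 190.3, 151, 135, 142 and 108 RPKM from 6 to 36 h on +Fe medium and at 185, 143, 176, 142, 136 and 149 RPKM on -Fe medium. The courses crossed, with a ratio between media of -0.44 at 6 h and 0.21 at 18 h.

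Apart from the sugar carriers above, 2 members are annotated as transporters. NRT1.8 (AT4G21680), which removes nitrate from the xylem sap, had the largest 6 h ratio on +Fe medium after CYP71A12. It was at 4.84 RPKM at 0 h, then 199, 143, 64.2, 77.5, 49.4 and 13.4 RPKM from 6 to 36 h on +Fe medium. On -Fe medium it was at 19.7, 13, 16.5, 8.85, 9.96 and 15.8 RPKM. Its ratio between media was -3.27 at 6 h and -3.36 at 12 h, the lowest of any member at these times, and 13.4 RPKM on +Fe medium stood beside 15.8 RPKM on -Fe medium at 36 h. AT1G22570, annotated only as of the major facilitator superfamily, was at 31.1 RPKM at 0 h, then 81.8, 85.8, 64.2, 54, 55.5 and 45.8 RPKM from 6 to 36 h on +Fe medium and at 56.8, 67.5, 68.9, 59.6, 58.2 and 77.2 RPKM on -Fe medium. Like WRKY62, it was at least 0.75 above 0 h at all 6 times on -Fe medium, and there its highest value was that of 36 h.

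Genes of nucleotide and amino acid synthesis and of translation were 5. AT1G30820 encodes a CTP synthase and was at 387 RPKM at 0 h, then 3334, 2641, 1515, 2259, 1678 and 751 RPKM from 6 to 36 h on +Fe medium. On -Fe medium it was at 1033, 804, 699, 450.3, 372 and 598 RPKM. The second step up on +Fe medium, from 1515 to 2259 RPKM between 18 and 24 h, had no counterpart on -Fe medium, where 450 RPKM followed 699. AT2G31810, a regulatory small subunit of acetolactate synthase, the first enzyme of branched-chain amino acid synthesis, was at 542 RPKM at 0 h, then 3147, 2443, 1275, 1797, 1489 and 870.0 RPKM from 6 to 36 h on +Fe medium and on -Fe plates at 1329, 959, 832, 596, 458 and 614 RPKM. SCO1, an elongation factor G of plastids, was near the lower limit of the rule with 0.79 at 6 h on -Fe medium. The 5 also hold the uridine kinase gene UKL3 and AT5G59240, annotated as a ribosomal protein of the small subunit. All 5 were at least 0.75 lower on -Fe medium at 12, 24 and 30 h. Of all 39 members 35, 35 and 34 were so at these times, beside 23.57%, 30.1% and 26.2% of the table. AT5G59240 was the 1 member that peaked on +Fe medium at 24 h, at 75.6 RPKM against 75.5 at 6 h.

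The remaining 7 members have no shared role. AT5G43520, with a cysteine and histidine-rich C1 domain, was at 316 RPKM at 0 h, then 2104, 1618, 867, 607, 619.7 and 278 RPKM from 6 to 36 h on +Fe medium and at 1236, 548, 447, 219, 128 and 165 RPKM on -Fe medium. Matches of 136 of its bases at 97.1% identity were found elsewhere on chromosome 5. Whether these lie in a gene was not checked, and part of its reads may come from there. AT4G27450, annotated as aluminum-induced, was at 3.69 RPKM at 0 h, then 46.6, 58.7, 17.2, 22.7, 10.4 and 10.5 RPKM from 6 to 36 h on +Fe medium and at 9.34, 13.5, 11.7, 1.61, 3.14 and 11.1 RPKM on -Fe medium, with a ratio between media of -3.18 at 24 h and 0.07 at 36 h. AT1G21530, of the AMP-dependent synthetase family, peaked with 69.8 RPKM on +Fe medium, at 12 h, and with 30.5 RPKM on -Fe medium, at 18 h, from 4.40 RPKM at 0 h. Members without further values here are AT1G33790, scpl16, AT2G30600 and AT1G13540, whose 6 h log2 ratios on +Fe medium ran from 1.99 to 3.21. In all 7, the -Fe value was at least 0.75 below the +Fe value at 12, 24 and 30 h. This held for 35, 35 and 34 of all 39 members, beside 23.57%, 30.1% and 26.2% of the table.

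By place and level the members were spread widely. Chromosomes 1 to 5 held 12, 4, 8, 5 and 10 of them. Their mean over the 13 groups ran from 11.4 to 2412 RPKM with a median of 134, against a median of 224 for the table, and none of their values was 0. Exons of 12 members overlapped those of another gene. Names were given for 22 of the 39, against 417 of 806 in the table.

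Some members lay close to the limits of the rule. For 6 h on -Fe medium CPK27 at 0.76 and SCO1 at 0.79 lay just inside and PLPB at 0.73 and AT5G53490 at 0.72 just outside. At the lower limit for 36 h AT5G43520 at -0.7498 and AT5G44585 at -0.71 lay inside, and AT3G51340 at -0.7547 and AGT2 at -0.7573 outside. At the upper limit AT1G22570 at 0.74 and WRKY62 at 0.46 lay inside, and PTR3 at 0.87 and BIR6 at 1.38 outside. For 6 h on +Fe medium the nearest members were CPK27 at 1.19 and AT1G22570 at 1.37, and the nearest gene outside that met the other limits was AT2G30660 at 0.11.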

How the data were processed

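Root epidermis of pWER::GFP seedlings was measured in 39 samples, 13 groups of 3. Reads were assessed with FastQC, trimmed, mapped to TAIR10 with TopHat2 and turned by the authors into RPKM with RSubread, and the deposited table gives 1 RPKM value for each of 806 genes and group. How the 3 samples were combined, and whether strand was used, is not given in the sources used here, nor is the depth. edgeR was used by the authors to call the genes. RPKM times exon length summed to nearly the same total in each group (CV 0.325%), so values are close to shares of these 806 genes. None of the 13 columns was left out.

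From the RPKM, log2 ratios of RPKM + 1 were computed with no filter on low values, and genes at or past 0.75 in size were counted and set beside the same count over all 806. The planned limma test could not be run on 1 value per group. The members, lists, role groups and motifs were chosen with earlier results of these data known. Named genes were the 10 members with the largest 6 h ratios, the 5 with the largest mean RPKM, the 4 at each end of the later ratios to 0 h and of the ratios between media, transcription factors, and the genes on either side of each limit. Further members were named to complete their role group, and chosen after their values were seen.

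Gene IDs were matched to the RefSeq annotation of TAIR10.1 (806 of 806), whose coordinates are used for promoters only. Copies were sought with blastn 2.17.0 (at least 125 bases at 97% identity). Tried in place of these settings were 0.1 or 10 RPKM as pseudocount, a floor of 1 RPKM on the mean, centring on group medians, a threshold of 1, the mean of the +Fe groups as control and, added after seeing the data, equal RPKM sums. The rule was tested on simulated data. Python 3.11.15, numpy 2.4.6, pandas 2.3.3 and matplotlib 3.10.9 were used.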

Additional observations from a re-analysis of the deposited data

Results flagged for a closer look

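Of the 39 members, 28 were above their 18 h level at 24 h on +Fe medium and below it on -Fe medium, so that the step over the same 6 h went opposite ways on the 2 media. The same combination was held by 311 of the 806 genes (38.6%). It was noticed after the values were seen, the difference was not tested, and a single value per group stands behind each step.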

How the results depend on the processing

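No paired analysis was possible because the table holds 1 value per gene and group, and for the same reason no replicate could be left out. The rule gave 38 genes with a pseudocount of 0.1 (37 of them among the 39 members), 41 with a pseudocount of 10 (33 among them), 39 with a minimum mean of 1 RPKM (39), 49 after centring on group medians (38), 45 at a threshold of 1 (27), and 38 with equal RPKM sums (38), an alternative chosen after seeing the data. For the fixed 39 members, medians moved by less than 1 SD over the members under each of these. With a pseudocount of 10, members at least 0.75 above 0 h on -Fe medium over 18, 24, 30 and 36 h numbered 12, 4, 1 and 6, and 5 on +Fe medium at 36 h, with 0 lower at 24 h on -Fe or at 36 h on +Fe medium. After centring, 0 were lower at 24 h on -Fe medium. At a threshold of 1, counts above 0 h on -Fe medium over 12, 24, 30 and 36 h were 11, 4, 2 and 6, with 0 lower at 24 h on -Fe or at 36 h on +Fe medium, and 4 members were lower on -Fe than on +Fe medium at 18 h.

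Against the mean of the +Fe groups in place of 0 h, a control that itself holds the high 6 h and 12 h values, the rule gave 3 genes, all members. On +Fe medium over 12, 18, 24, 30 and 36 h, 20, 0, 1, 0 and 0 members were then higher, and over 24, 30 and 36 h 1, 2 and 23 were lower. The medians on +Fe medium over the 5 times were 0.77, 0.012, 0.21, 0.018 and -0.82. On -Fe medium 0 members were higher from 12 to 36 h, and 7, 13, 36, 36 and 29 were lower. The medians on -Fe medium over the 5 times were -0.54, -0.57, -1.26, -1.50 and -1.21. Their sign was the reverse of that against 0 h at 12, 18, 24 and 36 h. On +Fe medium the sign of the median was reversed at 36 h. Ratios between media do not use the control. Over all alternatives, 224 of the ratios of single named genes stayed within the spread over members, and 29 moved further without a change of sign. Within that spread, ratios near 0 could change sign. After centring, the mean ratio between media over 12 to 30 h went from -0.01 to 0.11 for AT1G22570 and from -0.04 to 0.07 for CPK27. With 1 value per group and unknown depth, the size of the error behind any of these values cannot be given, and the 806 genes are a selected set, so shares of them do not describe all genes.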
